A study of Homo sapiens with 8 samples.

Results

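The genes described here are 42 listed targets of the transcription factor p53, measured in 2 human cell lines given the DNA-binding drug Zalypsis. The members were fixed as a list of names that leaves out CDKN1A, MDM2, the BCL2 family and the death receptors. Of the 42 genes, 40 had a probe set that carries their symbol alone, and 35 were bright enough to be tested among 11865 genes of the array. FDXR and GLS2 are the members without such a probe set and are not analysed here. SPATA18, ALDH4A1, GDF15, LIF and KITLG lay below the signal limit of 27.3 and were not tested.

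Zalypsis is a synthetic alkaloid of the family of marine natural products that bind in the minor groove of DNA. RNA came from cells labelled OPM1 with Zalypsis at 5 nM, OPM1 control cells, MM1S cells with Zalypsis at 5 nM and MM1S control cells, with 2 arrays in each of the 4 groups. The treated cells were collected when 15 to 20% of them had begun to die, at a time the labels do not give. The labels name neither a vehicle for the controls nor the p53 status of either line, and do not say whether replicate arrays stem from different cultures. The p-values below set a difference between groups against the scatter of replicate arrays, estimated over the 4 groups together. That scatter may be technical only.

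In unstressed cells p53 is held low because MDM2 marks it for destruction. DNA damage activates the kinases ATM, ATR and CHK2, p53 escapes MDM2, and it binds response elements made of a pair of decamers in or near its target genes. The products of those genes repair DNA, halt the cell cycle, restrain growth signalling, alter metabolism and, where damage persists, start apoptosis. In plasma cell myeloma, loss of p53 is known as a late and adverse event, and MM1S is known as a line that keeps wild-type p53.

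The correlation was 0.988 to 0.993 between replicate arrays and 0.801 to 0.963 between arrays of different groups. The 75th percentile of signal was 77.5 and 78.7 on the OPM1 Zalypsis arrays and between 101 and 115 on the other 6. The poly-A control transcripts spiked into the RNA read 1862 and 1349 on the OPM1 Zalypsis arrays, against 299.7 and 448 on the OPM1 control arrays, and between 19.7 and 25.7 on the MM1S arrays. On OPM1 control array 1 the GAPDH 3' probe set was 2.26 times as bright as the 5' one, against 0.963 to 1.06 times on the other arrays. The 10 plasma cell markers summed to 4349 to 4843 on the OPM1 Zalypsis arrays and 8002 to 8728 on the OPM1 control arrays, against 29510.1 to 30908 on the MM1S Zalypsis arrays and 39869.6 to 42180.2 on the MM1S control arrays. SDC1, the plasma cell antigen CD138, lay below the signal limit in both OPM1 groups and averaged 2501 and 3194 in MM1S Zalypsis and control cells. The 9 B-cell markers measured summed to 4325 to 5438 on the OPM1 Zalypsis arrays and 9646 to 11286 on the OPM1 control arrays, against 172 to 217 on the MM1S arrays, where 7 or 8 of them lay below the limit. Of the 10 plasma cell markers, SDC1 alone lay below the limit in OPM1 control cells, and SDC1 and PRDM1 did in OPM1 Zalypsis cells. The others lay above it. With SDC1 below the limit, the cells are called OPM1-labelled below. The 8 T and NK cell markers summed to 95.6 to 179 on every array, with at least 6 of the 8 below the limit. The 7 myeloid markers measured summed to 466 to 564 in OPM1 Zalypsis cells, 269 to 348 in OPM1 control cells, 155 to 161 in MM1S Zalypsis cells and 100.2 to 107 in MM1S control cells. The part of these markers, spike-ins and RNA ratios in the results below was not tested, and fewer cells of a type cannot be told apart from less RNA per cell.

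The p53 site itself can be seen in promoters of some members. RefSeq promoter windows of GRCh38.p14, which run from 250 bases before to 50 after a transcript start, were at hand for 35 members. The p53 decamer, searched by its consensus, which reads the same on both strands, occurred in a window of 9 of the 35 members (25.7%), against 8.06% of the 27305 genes with a window and 7.6% of the tested genes. A full site was 2 decamers at most 13 bases apart with at most 2 mismatches over the 20 bases. The central bases CWWG (W is A or T) of each decamer had to match. Such a site occurred in 3 members (8.57%), against 1.81% of all genes. The full sites lay in DDB2, AEN and GLS2, and EI24, FDXR, ISCU, PANK1, PLK2, RPS27L and SESN1 had a single decamer. The members were listed as p53 targets, so their higher shares may follow from that choice and are no test. A match is a run of letters and shows no binding, and a window without one says nothing of elements in introns or farther upstream. The 5 windows below are shown because their genes rose with Zalypsis in MM1S cells and were not called in OPM1-labelled cells. Capitals mark the decamers.
DDB2: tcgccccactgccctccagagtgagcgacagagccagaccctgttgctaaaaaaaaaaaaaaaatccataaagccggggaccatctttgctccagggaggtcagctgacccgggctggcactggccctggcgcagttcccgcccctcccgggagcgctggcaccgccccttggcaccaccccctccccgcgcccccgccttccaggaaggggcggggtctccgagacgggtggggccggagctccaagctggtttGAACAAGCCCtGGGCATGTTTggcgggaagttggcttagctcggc
PLK2: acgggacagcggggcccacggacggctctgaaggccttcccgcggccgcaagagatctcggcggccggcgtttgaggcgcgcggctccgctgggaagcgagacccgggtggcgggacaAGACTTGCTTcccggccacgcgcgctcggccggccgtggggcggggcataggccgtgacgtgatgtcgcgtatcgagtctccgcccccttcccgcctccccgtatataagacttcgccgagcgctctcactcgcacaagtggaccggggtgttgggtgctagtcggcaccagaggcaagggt
SESN1: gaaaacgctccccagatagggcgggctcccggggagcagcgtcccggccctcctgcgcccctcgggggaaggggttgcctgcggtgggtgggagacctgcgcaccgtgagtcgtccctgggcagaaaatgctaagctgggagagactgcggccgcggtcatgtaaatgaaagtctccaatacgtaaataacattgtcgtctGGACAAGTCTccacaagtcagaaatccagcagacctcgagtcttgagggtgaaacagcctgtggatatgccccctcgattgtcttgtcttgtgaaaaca
RPS27L: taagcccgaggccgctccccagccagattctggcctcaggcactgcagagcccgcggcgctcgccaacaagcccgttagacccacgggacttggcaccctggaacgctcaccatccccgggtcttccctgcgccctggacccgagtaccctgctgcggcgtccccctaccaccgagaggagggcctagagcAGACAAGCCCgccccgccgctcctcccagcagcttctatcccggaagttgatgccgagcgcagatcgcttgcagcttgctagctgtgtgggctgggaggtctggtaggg
EI24: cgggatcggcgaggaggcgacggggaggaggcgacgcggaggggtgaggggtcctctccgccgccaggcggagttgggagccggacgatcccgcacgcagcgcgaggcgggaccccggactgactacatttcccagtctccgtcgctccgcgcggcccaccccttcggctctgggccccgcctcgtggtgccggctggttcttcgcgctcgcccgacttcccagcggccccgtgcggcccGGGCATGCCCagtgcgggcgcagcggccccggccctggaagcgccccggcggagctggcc
The DDB2 window (chr11:47214724-47215023, plus strand) holds a full site with 0 mismatches and a spacer of 1 base, which begins 5 bases and ends 25 bases after the start. The PLK2 window (chr5:58460037-58460336, minus strand) has its decamer 132 to 123 bases before the start. The SESN1 window (chr6:109008939-109009238, minus strand), 1 of several starts of that gene, has it 49 to 40 bases before the start. The RPS27L window (chr15:63157428-63157727, minus strand) has it 59 to 50 bases before the start. The EI24 window (chr11:125569227-125569526, plus strand) has it 10 bases to 1 base before the start.

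The members answered Zalypsis differently in the 2 lines. In OPM1-labelled cells 7 of the 35 rose and 13 fell, and 15 were not called. In MM1S cells 22 rose, 6 fell and 7 were not called. Among all 11865 genes tested, 25.4% rose and 38.5% fell in OPM1-labelled cells, and 16.4% rose and 21.1% fell in MM1S cells. The median log2 change of the members was -0.13 in OPM1-labelled cells, beside -0.07 for all genes, and 0.64 in MM1S cells, beside 0.02 for all genes. The OPM1 counts moved with the scaling: they were 11 higher and 8 lower after quantile normalization, which shifts the median of all genes to 0.11 and calls 39.1% of them higher and 32.6% lower. After scaling to the poly-A controls, which shifts that median to -1.68, they were 1 higher and 30 lower, beside 0.573% and 92.6% of all genes. Under quantile normalization the MM1S counts were 24 and 4, beside 23.5% and 19.5% of all genes.

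**Figure D1:**
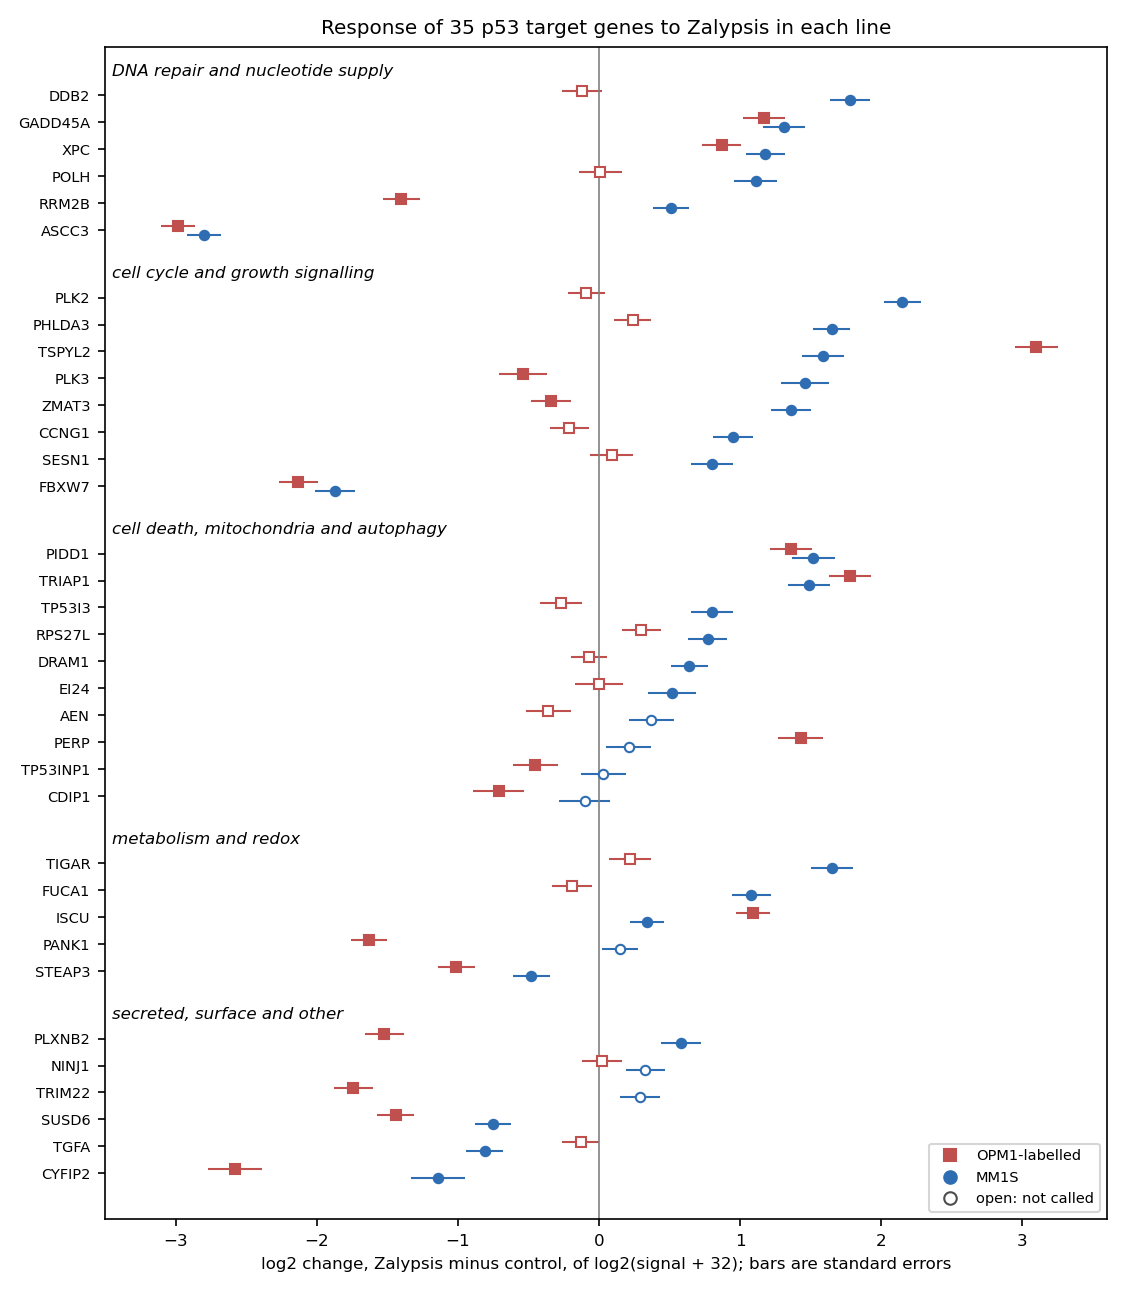
Log2 change of each of the 35 tested p53 target genes, Zalypsis minus control, in OPM1-labelled cells (squares) and MM1S cells (circles), grouped by role; bars are standard errors, and filled symbols passed the test. Most MM1S circles lie right of 0 (22 called higher), while OPM1 squares lie on both sides (7 higher, 13 lower).

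Line against line, 6 members rose in both: XPC, GADD45A, TSPYL2, PIDD1, TRIAP1 and ISCU, a pattern that 9.55% of all genes tested share. A further 12 members rose in MM1S cells and were not called in OPM1-labelled cells, a pattern of 5.03% of all genes: DDB2, POLH, PLK2, CCNG1, PHLDA3, SESN1, EI24, TP53I3, DRAM1, RPS27L, TIGAR and FUCA1. RRM2B, PLK3, ZMAT3 and PLXNB2 fell in OPM1-labelled cells and rose in MM1S cells, as 1.85% of all genes did. Both lines showed a fall in ASCC3, FBXW7, STEAP3, CYFIP2 and SUSD6, as in 17.6% of all genes. TP53INP1, CDIP1, PANK1 and TRIM22 fell in OPM1-labelled cells alone by the calls (19% of all genes), and PERP was the member called higher in OPM1-labelled cells and not called in MM1S cells (15.4%). TGFA fell in MM1S cells and was not called in OPM1-labelled cells (3.11%), and AEN and NINJ1 passed the test in neither line (28%).

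**Figure D2:**
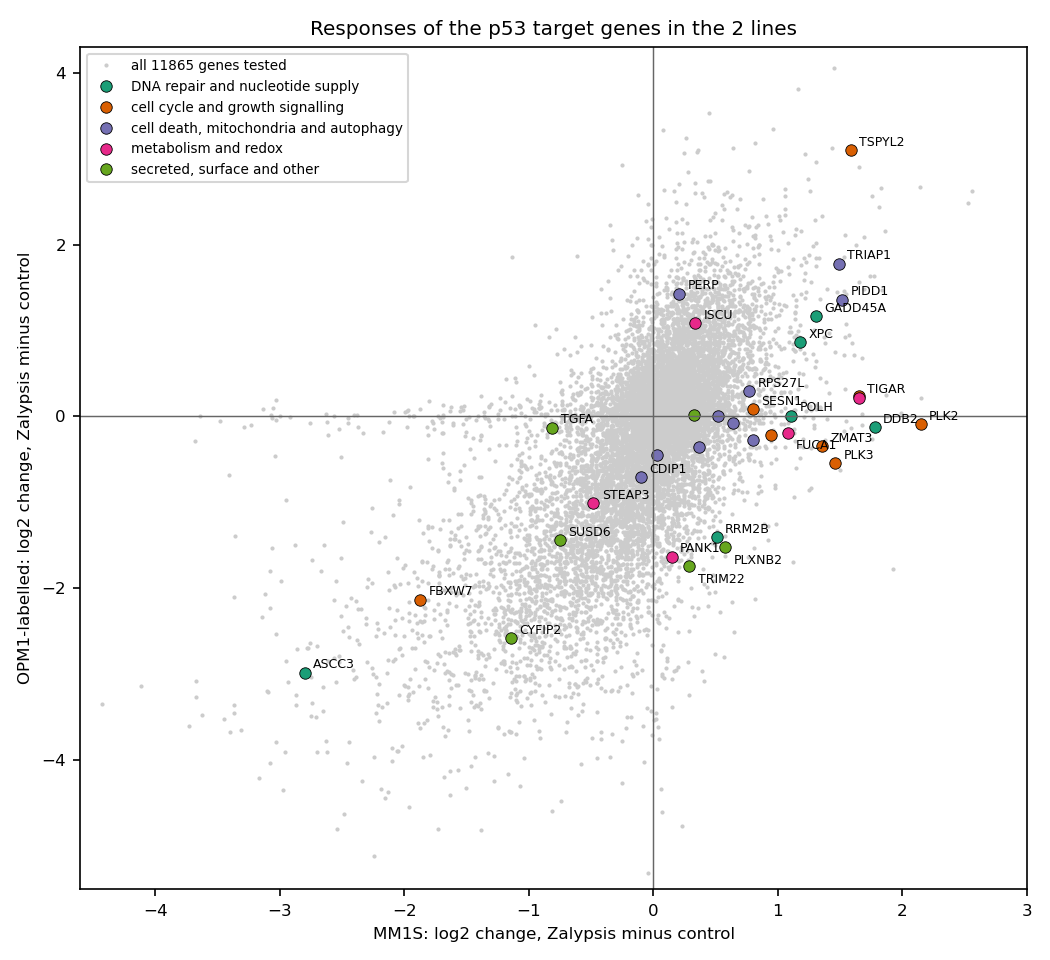
Log2 change in OPM1-labelled cells (vertical axis) against log2 change in MM1S cells (horizontal axis), Zalypsis minus control, for the 35 p53 target genes coloured by role and for all 11865 genes tested (grey). TSPYL2, TRIAP1, PIDD1, GADD45A and XPC lie high in both lines, ASCC3 and FBXW7 low in both, and PLK2, DDB2, TIGAR and FUCA1 lie right of 0 in MM1S at an OPM1 change between -0.19 and 0.22.

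Of the 6 members that repair DNA or supply its building blocks, 2 rose and 2 fell in OPM1-labelled cells (median log2 change -0.05), and 5 rose and 1 fell in MM1S cells (median 1.14). Among all genes, 25.4% rose and 38.5% fell in OPM1-labelled cells, and 16.4% rose and 21.1% fell in MM1S cells. DDB2, the subunit that finds ultraviolet lesions in chromatin for nucleotide excision repair, had signals of 80.1 and 73.2 on the OPM1 Zalypsis arrays, against 87.2 and 85.1 on the OPM1 control arrays, and of 978 and 772 on the MM1S Zalypsis arrays, against 249 and 212 on the MM1S control arrays. Both treated MM1S arrays stood far above either control, and the OPM1 arrays lay close together, the treated ones a little lower. The log2 change was -0.12 ± 0.14 (SE, adjusted p = 0.48) in OPM1-labelled cells and 1.78 ± 0.14 (adjusted p = 1.5e-09) in MM1S cells, and the difference between the lines was -1.90 ± 0.20 (adjusted p = 1.4e-07).

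XPC, which recognises distorted helices in the same repair pathway, had signals of 175 and 159 on Zalypsis arrays against 81.7 and 71.5 on control arrays of OPM1-labelled cells, and 846 and 698 on Zalypsis arrays against 344 and 302 on control arrays of MM1S cells. In both lines every treated array lay above both controls. The fit gave a log2 change of 0.87 ± 0.14 (adjusted p = 1.5e-05) in OPM1-labelled cells and 1.18 ± 0.14 (adjusted p = 9.3e-07) in MM1S cells, and these did not differ by the test (adjusted p = 0.24). GADD45A, a small stress sensor that binds PCNA and stress kinases, behaved alike: it had signals of 1612 and 1676 on Zalypsis arrays against 693 and 728 on control arrays of OPM1-labelled cells, and 1899 and 1591 on Zalypsis arrays against 736 and 628 on control arrays of MM1S cells. Treated and control arrays did not overlap in either line, at log2 changes of 1.17 ± 0.15 (adjusted p = 3.9e-07) in OPM1-labelled cells and 1.31 ± 0.15 (adjusted p = 2.7e-07) in MM1S cells.

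POLH, the translesion polymerase eta, read 73 and 47.5 on Zalypsis arrays against 68.1 and 49.8 on control arrays of OPM1-labelled cells, where the groups overlapped, and 286 and 313 on Zalypsis arrays against 105 and 140.3 on control arrays of MM1S cells, where they did not. Its log2 change was 0.01 (adjusted p = 0.95) in OPM1-labelled cells and 1.11 (adjusted p = 4.4e-06) in MM1S cells. RRM2B, the ribonucleotide reductase subunit that supplies deoxynucleotides outside S phase, went opposite ways. It had signals of 83.9 and 95.3 on the OPM1 Zalypsis arrays, against 316 and 264 on the OPM1 control arrays, and of 192 and 173 on the MM1S Zalypsis arrays, against 126 and 112 on the MM1S control arrays. Treated OPM1 arrays lay below their controls and treated MM1S arrays above theirs. The OPM1 change was -1.40 ± 0.13 (adjusted p = 5.5e-09), the MM1S change 0.51 ± 0.13 (adjusted p = 0.0046), and their difference -1.91 ± 0.19 (adjusted p = 5.7e-08). The MM1S call of RRM2B was lost without MM1S control array 2 (log2 change 0.44, adjusted p = 0.051) and without MM1S Zalypsis array 1 (0.44, adjusted p = 0.064).

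ASCC3, a helicase that opens DNA for the repair of alkylated bases, fell most of all members in both lines. It had signals of 7.6 and 8.1 on Zalypsis arrays against 286 and 279 on control arrays of OPM1-labelled cells, and of 29.4 and 38.2 on Zalypsis arrays against 415 and 436 on control arrays of MM1S cells. The treated OPM1 arrays lay below the signal limit, and no treated array of either line came near a control. Zalypsis changed it on the log2 scale by -2.98 ± 0.12 (adjusted p = 9.3e-15) in OPM1-labelled cells and -2.80 ± 0.12 (adjusted p = 1.2e-13) in MM1S cells. A second ASCC3 probe set did not show this: 231269_at read 100.5 and 95.1 on Zalypsis arrays against 120.3 and 109 on control arrays of OPM1-labelled cells and 112 and 113 on Zalypsis arrays against 91.3 and 103 on control arrays of MM1S cells, with log2 changes of -0.17 (adjusted p = 0.26) in OPM1-labelled cells and 0.17 (adjusted p = 0.37) in MM1S cells. The overall signals of the 2 probe sets were close (107 and 105), and the call for ASCC3 was made with 212815_at alone.

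**Figure D3:**
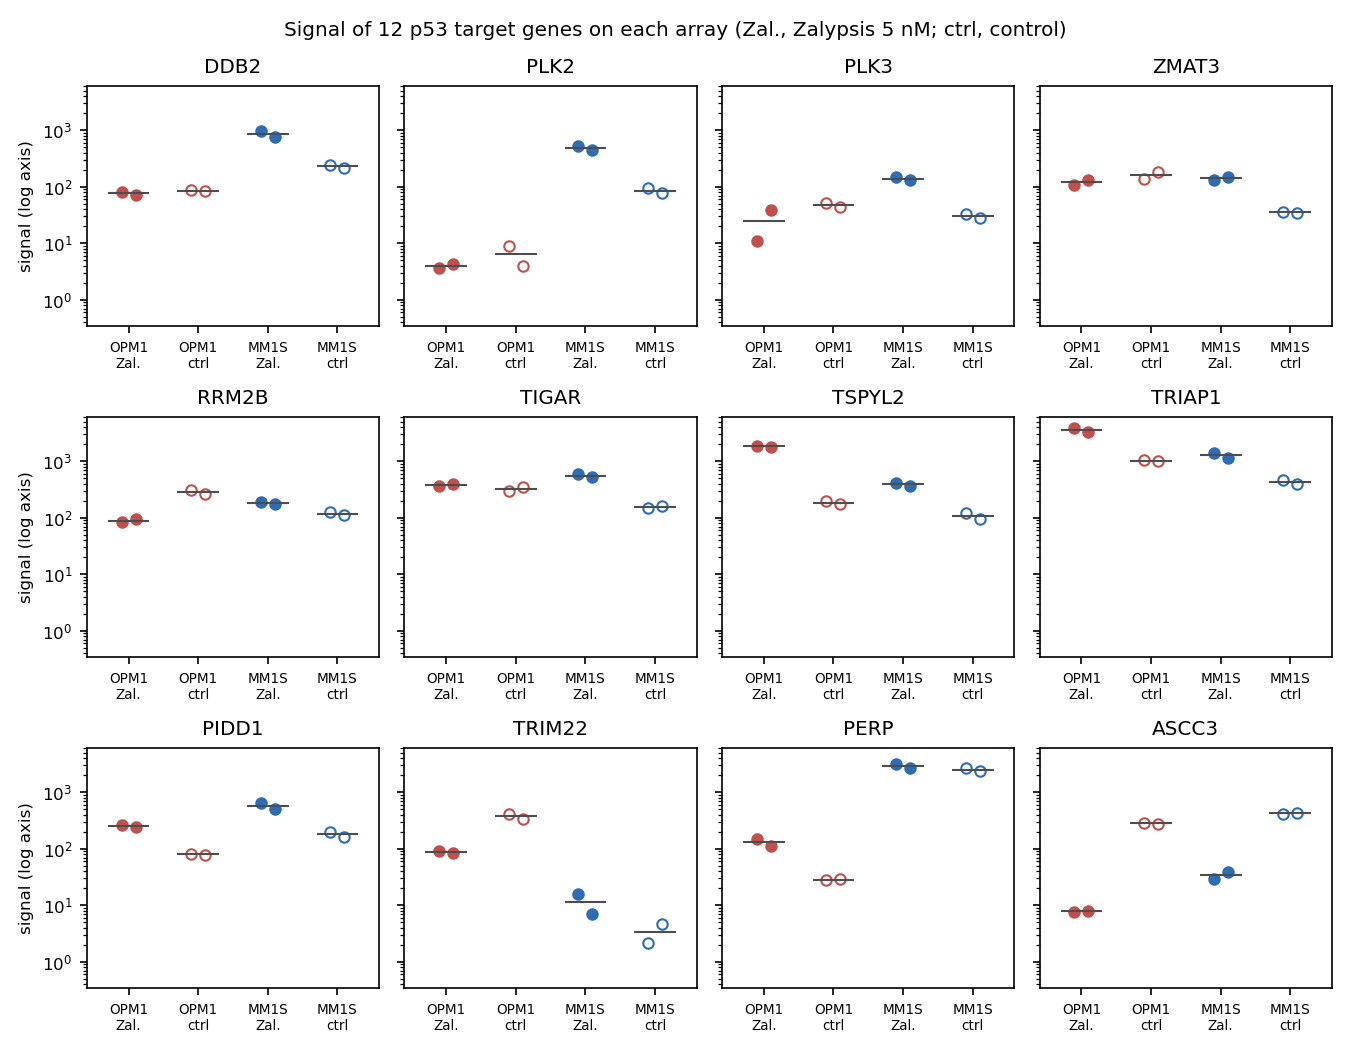
Signal of 12 p53 target genes on each of the 8 arrays (log axis), with Zalypsis (filled) and control (open) arrays of OPM1-labelled cells (red) and MM1S cells (blue); each point is 1 array and bars are group means. DDB2, PLK2, PLK3, ZMAT3 and TIGAR are higher with Zalypsis in MM1S cells, TSPYL2, TRIAP1 and PIDD1 in both lines, and ASCC3 is lower in both.

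Of 8 members that act in the cell cycle or in growth signalling, 1 rose and 3 fell in OPM1-labelled cells (median log2 change -0.15), and 7 rose and 1 fell in MM1S cells (median 1.41). The shares of all genes that rose and fell were 25.4% and 38.5% in OPM1-labelled cells and 16.4% and 21.1% in MM1S cells. The polo-like kinase PLK2, a stress-induced kinase of centriole duplication, had the largest rise of any member in MM1S cells. Its signals were 3.65 and 4.24 on the OPM1 Zalypsis arrays, against 8.89 and 4 on the OPM1 control arrays, all below the signal limit, and 526 and 459 on the MM1S Zalypsis arrays, against 94.2 and 78.3 on the MM1S control arrays. Its log2 change was -0.09 ± 0.13 (adjusted p = 0.55) in OPM1-labelled cells and 2.15 ± 0.13 (adjusted p = 1.8e-11) in MM1S cells. With all 4 OPM1 arrays at background, the difference of -2.24 ± 0.18 (adjusted p = 4.1e-09) sets a measured rise against signals not above the limit.

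The related kinase PLK3 had signals of 10.9 and 39.6 on Zalypsis arrays against 52.7 and 44.8 on control arrays of OPM1-labelled cells, and of 150.4 and 131 on Zalypsis arrays against 33.7 and 28.1 on control arrays of MM1S cells. The treated MM1S arrays stood clear of their controls, whereas 1 of the treated OPM1 arrays was far below the other. The measured log2 change was -0.54 ± 0.17 (adjusted p = 0.0091) in OPM1-labelled cells and 1.46 ± 0.17 (adjusted p = 5.4e-07) in MM1S cells. Without OPM1 Zalypsis array 1 the OPM1 change was -0.17 (adjusted p = 0.38), and with the mean of its probe sets it was -0.19 (adjusted p = 0.26). It also missed the threshold after quantile normalization (-0.47, adjusted p = 0.063).

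PHLDA3, a pleckstrin-homology protein that keeps AKT off the membrane, had signals of 48.9 and 40.7 on Zalypsis arrays against 37.6 and 28.7 on control arrays of OPM1-labelled cells, and of 166 and 160.3 on Zalypsis arrays against 35 and 25.9 on control arrays of MM1S cells. Treated arrays lay above controls in both lines, by far more in MM1S: the log2 changes were 0.24 ± 0.13 (adjusted p = 0.12) in OPM1-labelled cells and 1.65 ± 0.13 (adjusted p = 1.5e-09) in MM1S cells. After quantile normalization the OPM1 change of PHLDA3 passed the test (0.38, adjusted p = 0.019). ZMAT3, an RNA-binding zinc finger protein, had signals of 109 and 132 on Zalypsis arrays against 138 and 185 on control arrays of OPM1-labelled cells, and of 131 and 151 on Zalypsis arrays against 35.3 and 35.1 on control arrays of MM1S cells. Treated MM1S cells reached the level range of the OPM1-labelled cells, and the MM1S controls lay below every other array. The ZMAT3 change was -0.34 ± 0.14 (adjusted p = 0.036) in OPM1-labelled cells and 1.36 ± 0.14 (adjusted p = 5.2e-08) in MM1S cells. The OPM1 call for ZMAT3 was lost without OPM1 Zalypsis array 1 (log2 change -0.23, adjusted p = 0.24) and without OPM1 control array 2 (-0.16, adjusted p = 0.37), and the change was 0.04 (adjusted p = 0.79) after quantile normalization.

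CCNG1, which encodes cyclin G1, had a log2 change of -0.21 in OPM1-labelled cells (adjusted p = 0.2) and rose by 0.95 in MM1S cells (adjusted p = 1.3e-05). Without OPM1 control array 2 its OPM1 change passed the test (-0.36, adjusted p = 0.045). SESN1, a sestrin that restrains mTORC1, had a log2 change of 0.09 in OPM1-labelled cells and rose by 0.80 in MM1S cells (adjusted p = 1.8e-04). After quantile normalization its OPM1 change was 0.50 (adjusted p = 0.0016).

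TSPYL2, a nucleosome-assembly family protein that slows proliferation, rose in both lines and had the largest rise of any member in OPM1-labelled cells. Its signals were 1875 and 1820 on the OPM1 Zalypsis arrays, against 196 and 178 on the OPM1 control arrays, and 417 and 368 on the MM1S Zalypsis arrays, against 123 and 96.8 on the MM1S control arrays. No arrays overlapped in either line, and the treated OPM1 arrays were the brightest of the 8. The log2 change was 3.10 ± 0.15 (adjusted p = 8.0e-14) in OPM1-labelled cells and 1.59 ± 0.15 (adjusted p = 1.8e-08) in MM1S cells, a difference of 1.52 ± 0.21 (adjusted p = 5.0e-06).

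FBXW7, the receptor of the ubiquitin ligase that destroys cyclin E and MYC, fell in both lines. It had signals of 56.1 and 45.1 on Zalypsis arrays against 353 and 308 on control arrays of OPM1-labelled cells, and of 84.6 and 92.2 on Zalypsis arrays against 438 and 378 on control arrays of MM1S cells. Every treated array lay far below both controls of its line. The fit gave a log2 change of -2.13 ± 0.14 (adjusted p = 6.8e-12) in OPM1-labelled cells and -1.87 ± 0.14 (adjusted p = 3.2e-10) in MM1S cells.

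Of 10 tested members with roles in cell death, mitochondria and autophagy, 3 rose and 2 fell in OPM1-labelled cells (median log2 change -0.04), and 6 rose and 0 fell in MM1S cells (median 0.58, limma). At an unadjusted p under 0.05 the count of MM1S falls was also 0. Over all genes, 25.4% rose and 38.5% fell in OPM1-labelled cells, and 16.4% rose and 21.1% fell in MM1S cells. The 2 members with large rises in both lines act on opposite sides of apoptosis. PIDD1, the scaffold of the complex that activates caspase-2, had signals of 262 and 248 on Zalypsis arrays against 81.5 and 77.8 on control arrays of OPM1-labelled cells, and of 661 and 509 on Zalypsis arrays against 198 and 165 on control arrays of MM1S cells. No treated array overlapped a control, and the log2 changes were 1.36 ± 0.15 (adjusted p = 3.6e-08) in OPM1-labelled cells and 1.52 ± 0.15 (adjusted p = 2.6e-08) in MM1S cells.

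TRIAP1, a small mitochondrial protein that carries phosphatidic acid and opposes apoptosis, had signals of 3914 and 3368 on Zalypsis arrays against 1050.3 and 1023 on control arrays of OPM1-labelled cells, and of 1419 and 1149.5 on Zalypsis arrays against 471 and 399.9 on control arrays of MM1S cells. Treated arrays stood clear of their controls in both lines. Zalypsis changed it on the log2 scale by 1.78 ± 0.15 (adjusted p = 8.8e-10) in OPM1-labelled cells and 1.49 ± 0.15 (adjusted p = 5.9e-08) in MM1S cells, and the lines' responses were not called different (adjusted p = 0.29). Scaling to the poly-A controls put the OPM1 changes at -0.36 for PIDD1 and -0.30 for TRIAP1.

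PERP, a tetraspan membrane protein of desmosomes that promotes apoptosis, had signals of 149.8 and 114 on Zalypsis arrays against 27.8 and 29.2 on control arrays of OPM1-labelled cells, and of 3174 and 2708 on Zalypsis arrays against 2666 and 2417 on control arrays of MM1S cells. The OPM1 arrays were far below every MM1S array, whatever the treatment. Its log2 change was 1.43 ± 0.16 (adjusted p = 4.6e-08) in OPM1-labelled cells and 0.21 ± 0.16 (adjusted p = 0.33) in MM1S cells. That probe set, 222392_x_at, is of a kind that may bind related transcripts. The next brightest, 217744_s_at, read 21 and 17.5 on Zalypsis arrays against 13 and 8.14 on control arrays of OPM1-labelled cells, at a log2 change of 0.27 (adjusted p = 0.11), and without probe sets of these kinds the OPM1 change of PERP was 0.04 (adjusted p = 0.84).

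The log2 changes of the remaining members of this role were smaller. TP53I3, a quinone oxidoreductase, had a log2 change of -0.27 in OPM1-labelled cells (adjusted p = 0.12) and rose by 0.80 in MM1S cells (adjusted p = 1.5e-04). Without OPM1 Zalypsis array 2 the OPM1 change of TP53I3 was called (-0.44, adjusted p = 0.03). DRAM1, a lysosomal membrane protein of autophagy, had a log2 change of -0.07 in OPM1-labelled cells and rose by 0.64 in MM1S cells (adjusted p = 4.0e-04). Its OPM1 signals, 12.4 and 12.3 on Zalypsis arrays against 13.4 and 15.5 on control arrays, all lay below the signal limit. RPS27L, a ribosomal protein paralogue, had signals of 774 and 911 on Zalypsis arrays against 607 and 753 on control arrays of OPM1-labelled cells, and of 4804 and 4694 on Zalypsis arrays against 2806 and 2753 on control arrays of MM1S cells. Every OPM1 array lay below every MM1S array, and the log2 change was 0.30 ± 0.14 (adjusted p = 0.071) in OPM1-labelled cells and 0.77 ± 0.14 (adjusted p = 1.7e-04) in MM1S cells. The OPM1 change of RPS27L was called after quantile normalization (0.55, adjusted p = 7.8e-04) and without OPM1 control array 2 (0.45, adjusted p = 0.013). EI24, an endoplasmic reticulum protein of autophagy, had signals of 1572 and 1476 on Zalypsis arrays against 1748 and 1331 on control arrays of OPM1-labelled cells, and of 1015 and 841 on Zalypsis arrays against 728 and 554 on control arrays of MM1S cells. The OPM1 groups of EI24 overlapped (log2 change -0.00, adjusted p = 0.99), and the MM1S rise of 0.52 (adjusted p = 0.018) was lost without MM1S control array 2 (0.33, adjusted p = 0.19) and without MM1S Zalypsis array 1 (0.39, adjusted p = 0.2). A dimmer EI24 probe set, 208289_s_at, read 687 and 634 on Zalypsis arrays against 464 and 489 on control arrays of OPM1-labelled cells, and was called higher there (0.44, adjusted p = 0.013) as well as in MM1S cells (0.54, adjusted p = 0.0085) in a fit over probe sets.

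TP53INP1, a cofactor of p53 in stress and autophagy, fell by 0.45 on the log2 scale in OPM1-labelled cells (adjusted p = 0.019), with a change of 0.03 in MM1S cells. Its OPM1 call was lost without OPM1 control array 1 (-0.39, adjusted p = 0.1), the array with the raised GAPDH ratio, and without OPM1 Zalypsis array 1 (-0.40, adjusted p = 0.12). The change was -0.07 (adjusted p = 0.56) after quantile normalization and -0.14 (adjusted p = 0.28) with the mean of its probe sets. CDIP1, a proapoptotic membrane protein, fell by 0.71 on the log2 scale in OPM1-labelled cells (adjusted p = 0.0016), with a change of -0.10 in MM1S cells. That OPM1 call was lost after quantile normalization (-0.31, adjusted p = 0.11) and with the mean of its probe sets (-0.22, adjusted p = 0.18). The nuclease AEN had a log2 change of -0.36 in OPM1-labelled cells (adjusted p = 0.053) and of 0.37 in MM1S cells (adjusted p = 0.078), neither past the threshold, while the difference between them of -0.73 was (adjusted p = 0.011). Without OPM1 control array 1 that difference was -0.59 (adjusted p = 0.057). After quantile normalization AEN was called higher in MM1S cells (0.48, adjusted p = 0.0063), and without OPM1 control array 2 it was called lower in OPM1-labelled cells (-0.50, adjusted p = 0.026).

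Of 5 tested members of metabolism and redox balance, 1 rose and 2 fell in OPM1-labelled cells (median log2 change -0.19), and 3 rose and 1 fell in MM1S cells (median 0.34). For all genes the shares higher and lower were 25.4% and 38.5% in OPM1-labelled cells and 16.4% and 21.1% in MM1S cells. TIGAR, a bisphosphatase that diverts glucose from glycolysis to the pentose phosphate pathway, had signals of 368 and 395 on Zalypsis arrays against 302 and 346 on control arrays of OPM1-labelled cells, and of 592 and 526 on Zalypsis arrays against 148 and 163 on control arrays of MM1S cells. Treated MM1S arrays stood far above their controls, and the OPM1 arrays kept within a narrow range. The measured log2 change was 0.22 ± 0.15 (adjusted p = 0.2) in OPM1-labelled cells and 1.65 ± 0.15 (adjusted p = 6.0e-09) in MM1S cells. After quantile normalization the OPM1 change of TIGAR was called (0.56, adjusted p = 4.0e-04). FUCA1, a lysosomal fucosidase, had signals of 98 and 88.2 on Zalypsis arrays against 104 and 117 on control arrays of OPM1-labelled cells, and of 947 and 874 on Zalypsis arrays against 444 and 385 on control arrays of MM1S cells. MM1S cells held more FUCA1 signal in each state, and the log2 change was -0.19 ± 0.14 in OPM1-labelled cells and 1.08 ± 0.14 (adjusted p = 2.2e-06) in MM1S cells.

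ISCU, the scaffold on which iron-sulphur clusters are assembled, had signals of 3384 and 3079 on Zalypsis arrays against 1569 and 1438 on control arrays of OPM1-labelled cells, and of 5299 and 5305 on Zalypsis arrays against 4232 and 4158 on control arrays of MM1S cells. Every treated array lay above both controls, by more in OPM1-labelled cells. Its log2 change was 1.09 ± 0.12 (adjusted p = 2.7e-08) in OPM1-labelled cells and 0.34 ± 0.12 (adjusted p = 0.025) in MM1S cells. Leaving out any 1 of the 4 MM1S arrays ended the MM1S call of ISCU. PANK1, a pantothenate kinase of coenzyme A synthesis, had signals of 39.7 and 42.6 on Zalypsis arrays against 219.8 and 173 on control arrays of OPM1-labelled cells, and of 28.9 and 32.8 on Zalypsis arrays against 24.3 and 24.8 on control arrays of MM1S cells. The OPM1 controls stood above the other 6 arrays. Its log2 change in OPM1-labelled cells was -1.63 ± 0.13 (adjusted p = 3.3e-10), a fall to near the signal limit at which MM1S cells had it in both states.

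STEAP3, an endosomal reductase of iron, had signals of 4.67 and 9.93 on Zalypsis arrays against 45.4 and 48.1 on control arrays of OPM1-labelled cells, and of 173 and 155 on Zalypsis arrays against 271 and 213 on control arrays of MM1S cells. All treated arrays were below their controls, and the treated OPM1 arrays were below the signal limit. The log2 change was -1.01 ± 0.13 (adjusted p = 7.7e-07) in OPM1-labelled cells and -0.48 ± 0.13 (adjusted p = 0.0071) in MM1S cells. The MM1S call was lost without MM1S control array 1 (-0.33, adjusted p = 0.13) and without MM1S Zalypsis array 2 (-0.41, adjusted p = 0.068), and after quantile normalization (-0.32, adjusted p = 0.052).

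Of 6 tested members with secreted, surface and other products, 0 rose and 4 fell in OPM1-labelled cells (median log2 change -1.48, limma), and 1 rose and 3 fell in MM1S cells (median -0.23). At an unadjusted p under 0.05 the count of OPM1 rises was also 0. In OPM1-labelled cells 25.4% of all genes rose and 38.5% fell, and in MM1S cells 16.4% rose and 21.1% fell. CYFIP2, a subunit of the actin-regulating WAVE complex, had signals of 286 and 166 on Zalypsis arrays against 1466 and 1466 on control arrays of OPM1-labelled cells, and of 859 and 689.8 on Zalypsis arrays against 1933 and 1561 on control arrays of MM1S cells. Treated arrays were lower in both lines, and the treated OPM1 arrays differed from each other. The fit gave a log2 change of -2.58 ± 0.19 (adjusted p = 7.1e-11) in OPM1-labelled cells and -1.14 ± 0.19 (adjusted p = 4.6e-05) in MM1S cells, a difference of -1.43 ± 0.27 (adjusted p = 1.4e-04).

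SUSD6, a membrane protein with a sushi domain, had signals of 28.9 and 31.7 on Zalypsis arrays against 122 and 152 on control arrays of OPM1-labelled cells, and of 187 and 171 on Zalypsis arrays against 332 and 315 on control arrays of MM1S cells. Treated arrays lay below both controls in either line, with log2 changes of -1.44 ± 0.13 (adjusted p = 2.3e-09) in OPM1-labelled cells and -0.75 ± 0.13 (adjusted p = 7.7e-05) in MM1S cells. TGFA, a ligand of the EGF receptor, had signals of 4.12 and 6.78 on Zalypsis arrays against 9.71 and 8.16 on control arrays of OPM1-labelled cells, all below the signal limit, and of 55.5 and 48 on Zalypsis arrays against 117 and 112 on control arrays of MM1S cells. The treated arrays of both lines lay below their controls. The OPM1 change of -0.13 was between levels at background, and in MM1S cells TGFA fell by 0.81 on the log2 scale (SE 0.13, adjusted p = 3.7e-05). A dimmer TGFA probe set, 211258_s_at, had a mean signal of 22.8 and did not show this fall. In the fit over probe sets it gave 0.06 (adjusted p = 0.81) in MM1S cells and 0.05 (adjusted p = 0.87) for the difference between the lines.

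PLXNB2, a receptor of semaphorins, had signals of 66.1 and 79.5 on Zalypsis arrays against 247 and 292 on control arrays of OPM1-labelled cells, and of 222 and 183 on Zalypsis arrays against 142 and 109 on control arrays of MM1S cells. Groups did not overlap in either line, and their order was opposite: the log2 change was -1.52 ± 0.14 (adjusted p = 4.5e-09) in OPM1-labelled cells and 0.58 ± 0.14 (adjusted p = 0.0028) in MM1S cells, a difference of -2.10 ± 0.20 (adjusted p = 4.0e-08). The MM1S call of PLXNB2 was lost without MM1S control array 2 (0.43, adjusted p = 0.066) and without MM1S Zalypsis array 1 (0.46, adjusted p = 0.061), and with the mean of its probe sets (0.35, adjusted p = 0.051). TRIM22, an interferon-inducible ubiquitin ligase, had signals of 92 and 86.2 on Zalypsis arrays against 415 and 334 on control arrays of OPM1-labelled cells, and of 16.2 and 6.98 on Zalypsis arrays against 2.17 and 4.62 on control arrays of MM1S cells, where every array lay below the signal limit. The OPM1 controls were the brightest arrays and did not overlap the treated ones. Its log2 change in OPM1-labelled cells was -1.74 ± 0.14 (adjusted p = 2.8e-10). NINJ1, which drives rupture of the plasma membrane in dying cells, had log2 changes of 0.02 in OPM1-labelled cells and 0.33 in MM1S cells (adjusted p = 0.069). After quantile normalization the MM1S change of NINJ1 was called (0.43, adjusted p = 0.017).

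The 5 members below the signal limit include the secreted factors GDF15, LIF and KITLG. GDF15 is a circulating stress cytokine. It had signals of 16.3 and 14.7 on Zalypsis arrays against 15.7 and 10.9 on control arrays of OPM1-labelled cells, and of 29.5 and 27 on Zalypsis arrays against 14.3 and 16.6 on control arrays of MM1S cells. Both treated MM1S arrays exceeded both controls, but the mean over the 8 arrays was too dim for the fit over genes. In a fit over probe sets, with a lower signal limit of 17.6, the GDF15 change was 0.07 (adjusted p = 0.67) in OPM1-labelled cells and 0.34 (adjusted p = 0.054) in MM1S cells. LIF, a cytokine of the interleukin 6 family, read 14.6 and 10.3 on Zalypsis arrays against 12.2 and 9.57 on control arrays of OPM1-labelled cells, and 27.3 and 20.5 on Zalypsis arrays against 11.5 and 9.7 on control arrays of MM1S cells. KITLG, the ligand of KIT, ranged from 8.81 to 20.5 over the 8 arrays, and ALDH4A1, an enzyme of proline breakdown, ranged from 15.4 to 29.6. SPATA18, a protein of mitochondrial quality control, ranged from 2.47 to 23.8. These ranges lie at or near the background of the arrays.

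The difference between the responses, OPM1-labelled minus MM1S, was tested in the same fit. It was called negative for 20 of the 35 members and positive for 4, against 31.2% and 15.3% of all genes tested. The median difference was -0.71 over the members and -0.13 over all genes. The 6 most negative differences were those of PLK2 (-2.24), PLXNB2 (-2.10), TRIM22 (-2.03), PLK3 (-2.00), RRM2B (-1.91) and DDB2 (-1.90). They are of unlike make: DDB2 rose in MM1S cells with no call in OPM1-labelled cells, PLK2 did so with all OPM1 signals below the limit, TRIM22 fell in OPM1-labelled cells with all MM1S signals below the limit, and PLXNB2, RRM2B and PLK3 were called in opposite directions. The positive differences were those of TSPYL2 (1.52), PERP (1.22), ISCU (0.75) and TGFA (0.68). That of TGFA sets an MM1S fall against OPM1 signals all below the limit. That of PERP was read from 222392_x_at. In the fit over probe sets the other tested PERP probe sets gave -0.10 (217744_s_at, adjusted p = 0.74) and -0.13 (236009_at, adjusted p = 0.63). Scaling the OPM1 arrays to the poly-A controls, with the MM1S arrays as deposited, left 0 positive and 32 negative (limma). At an unadjusted p under 0.05 the positive count was also 0. That scaling lowered the OPM1 changes of all genes together (median difference of all genes -1.72). It left 1.01% of all genes positive and 91.6% negative.

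Some members already stood apart before treatment. Between untreated OPM1-labelled and untreated MM1S cells, 9 of the 35 members were higher and 18 lower in OPM1-labelled cells, against 28.6% and 35.2% of all genes tested. The median log2 difference was -0.54 over the members and -0.05 over all genes. PERP was the extreme: the control arrays gave 27.8 and 29.2 in OPM1-labelled cells and 2666 and 2417 in MM1S cells, a log2 difference of -5.41 ± 0.16 (adjusted p = 8.8e-18). RPS27L (-1.99, adjusted p = 5.2e-11), TGFA (-1.84, adjusted p = 5.1e-11), STEAP3 (-1.79, adjusted p = 1.0e-10), XPC (-1.71, adjusted p = 8.9e-10) and FUCA1 (-1.64, adjusted p = 1.1e-09) followed. TRIM22 was the extreme in the other direction, at 3.51 ± 0.14 (adjusted p = 1.5e-15), followed by PANK1 (2.00, adjusted p = 1.2e-11), ZMAT3 (1.52, adjusted p = 2.7e-09), EI24 (1.22, adjusted p = 1.4e-06), TRIAP1 (1.20, adjusted p = 5.0e-07) and RRM2B (1.09, adjusted p = 3.1e-07). The MM1S control signals of TRIM22 and PANK1 lay below the signal limit, as did the OPM1 control signals of TGFA, PLK2 (-1.62) and DRAM1 (-0.74). These differences set a measured level against one not above it, and they are part of the counts and the median of the members. The dimmer EI24 probe set, 208289_s_at, gave -0.24 (adjusted p = 0.15) between untreated lines, and the dimmer TGFA probe set, 211258_s_at, gave 0.19 (adjusted p = 0.28). GADD45A (adjusted p = 0.74), CCNG1 (0.71), PHLDA3 (0.7), AEN (0.87) and TP53I3 (0.16) were among the 8 that did not differ by the test. These contrasts share the control arrays with the responses above, so a member that starts high in OPM1-labelled cells and a fall there are not separate observations.

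Members with several probe sets gave a second reading. The 40 members had 80 probe sets, of which 60 were bright enough for a fit over 32768 probe sets, and 12 members had more than 1 of these. Opposite calls within a member occurred for FBXW7 in both lines and for POLH in OPM1-labelled cells. In FBXW7 3 probe sets fell in both lines, between -2.13 and -0.97 in OPM1-labelled cells and between -1.87 and -0.58 in MM1S cells. The other, 239494_at, had signals of 114 and 125 on Zalypsis arrays against 27.2 and 26.2 on control arrays of OPM1-labelled cells, and of 71.7 and 69 on Zalypsis arrays against 30.6 and 28.1 on control arrays of MM1S cells, at log2 changes of 1.36 (adjusted p = 2.4e-07) in OPM1-labelled cells and 0.74 (adjusted p = 2.7e-04) in MM1S cells. All its treated arrays lay above all controls, where the other 3 lay below them. Which transcripts of FBXW7 each probe set reads is not given in the files.

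For POLH in OPM1-labelled cells 231115_at read 38.6 and 32.5 on Zalypsis arrays against 24.9 and 15.8 on control arrays (log2 change 0.37, adjusted p = 0.047), while 233852_at read 12.1 and 21.4 on Zalypsis arrays against 53.6 and 44.7 on control arrays (-0.74, adjusted p = 2.5e-04). In MM1S cells 5 of its 6 probe sets rose, by 0.81 to 1.54. For RPS27L in OPM1-labelled cells 238935_at read 47.1 and 38.2 on Zalypsis arrays against 109 and 98.8 on control arrays (-0.87, adjusted p = 1.1e-04), and in MM1S cells each of its 3 probe sets rose, by 0.49 to 0.97. CDIP1 fell in OPM1-labelled cells with 223960_s_at, and 218183_at had a log2 change of 0.27 there (adjusted p = 0.11). PHLDA3, PIDD1 and CYFIP2 had probe sets that gave the same calls in each line, for example -2.58 and -2.29 for CYFIP2 in OPM1-labelled cells.

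**Figure D4:**
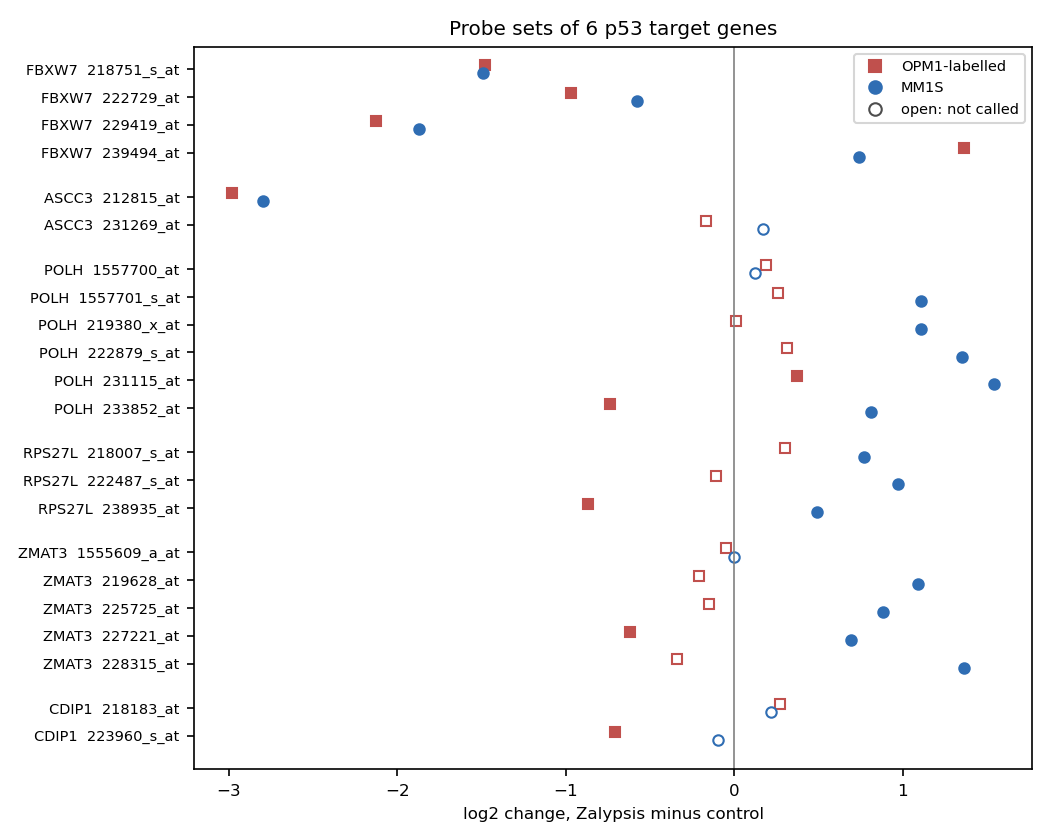
Log2 change, Zalypsis minus control, of every tested probe set of FBXW7, ASCC3, POLH, RPS27L, ZMAT3 and CDIP1 in OPM1-labelled cells (squares) and MM1S cells (circles); filled symbols passed the test in the fit over 32768 probe sets. FBXW7 239494_at lies at 1.36 and 0.74 while the 3 other FBXW7 probe sets lie below 0, and ASCC3 231269_at lies near 0.

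The span of a gene in the genome, from first to last annotated base, ran with the response. The 35 members had a median span of 24.8 kb, beside 28.3 kb for all genes tested. Over the members, Spearman's rho between span and log2 change was -0.59 in OPM1-labelled cells and -0.58 in MM1S cells (35 genes), beside -0.48 in both lines over 11855 genes, and genes within 1 set of arrays are not independent. Of the 6 members over 100 kb, ASCC3, FBXW7, SESN1, TGFA, CYFIP2 and SUSD6, 0 rose (limma; also 0 at an unadjusted p under 0.05) and 4 fell in OPM1-labelled cells (median -1.79), and 1 rose and 5 fell in MM1S cells (median -0.97). The member that rose in MM1S cells was SESN1, at 111 kb, and after quantile normalization it was also called higher in OPM1-labelled cells (0.50, adjusted p = 0.0016, limma). All OPM1 signals of TGFA lay below the signal limit. The falls of ASCC3 and FBXW7 were not shared by all their probe sets. In OPM1-labelled and MM1S cells, ASCC3 231269_at gave -0.17 and 0.17, not called, and FBXW7 239494_at rose by 1.36 and 0.74. Of the 29 shorter members, 7 rose and 9 fell in OPM1-labelled cells (median -0.09), and 21 rose and 1 fell in MM1S cells (median 0.80). Of all 1977 tested genes above 100 kb, 149 rose and 1286 fell in OPM1-labelled cells (median -1.07), and 70 rose and 1248 fell in MM1S cells (median -0.69). Of all 9878 shorter genes, 2861 rose and 3280 fell in OPM1-labelled cells (median 0.00), and 1879 rose and 1258 fell in MM1S cells (median 0.07). TRIAP1, at 2.42 kb, and TSPYL2, at 6.17 kb, are among the short members that rose in both lines.

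**Figure D5:**
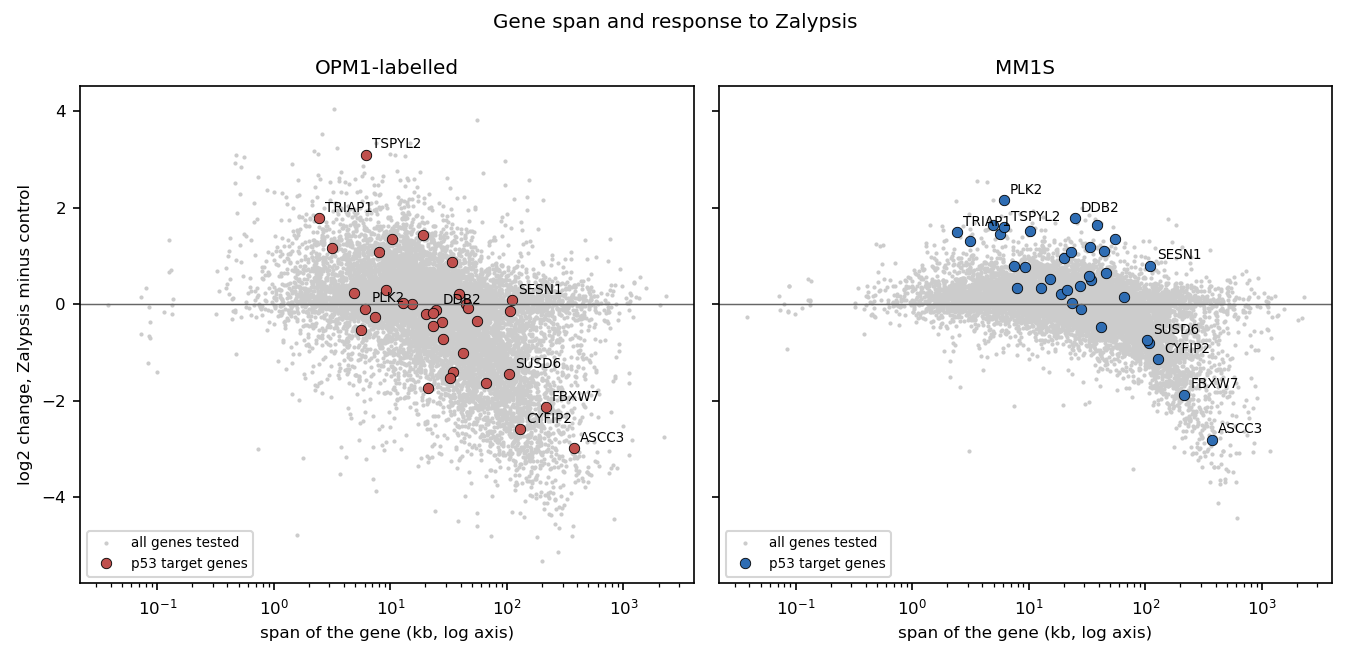
Log2 change, Zalypsis minus control, against gene span (kb, log axis) in OPM1-labelled cells (left) and MM1S cells (right) for the p53 target genes (coloured) and all genes tested (grey). ASCC3 (373 kb) and FBXW7 (216 kb) are lowest or near lowest among the members in both lines, and in MM1S cells SESN1 is the member above 100 kb that lies above 0.

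Other genes of the pathway were read from lists chosen with earlier results of these data known. CDKN1A, the cell cycle inhibitor most used as a p53 readout, averaged 302 ± 7.05 and 1113 ± 37.2 in OPM1 Zalypsis and control cells, and 3502 ± 201 and 906 ± 226 in MM1S Zalypsis and control cells (SD, n = 2 arrays each). MDM2 averaged 185 ± 9.6 and 1448 ± 275 in OPM1 Zalypsis and control cells, and 2509.5 ± 176 and 1765 ± 7.64 in MM1S Zalypsis and control cells. The log2 change of CDKN1A was -1.78 in OPM1-labelled cells and 1.93 in MM1S cells, and that of MDM2 was -2.76 in OPM1-labelled cells and 0.50 in MM1S cells. The gene of p53 itself is not analysed here.

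Of 39 tested genes on a list of other p53 targets, 13 rose and 13 fell in OPM1-labelled cells (median log2 change 0.07), and 20 rose and 2 fell in MM1S cells (median 0.39). Among all genes tested 25.4% rose and 38.5% fell in OPM1-labelled cells, and 16.4% rose and 21.1% fell in MM1S cells. IER5, a stress-induced nuclear protein, had signals of 2870 and 2484 on Zalypsis arrays against 702 and 726 on control arrays of OPM1-labelled cells, and of 3231 and 2931 on Zalypsis arrays against 1158 and 940.4 on control arrays of MM1S cells, and rose by 1.86 in OPM1-labelled cells and by 1.53 in MM1S cells. ANKRA2 rose by 1.48 in OPM1-labelled cells and by 1.40 in MM1S cells. RNF19B rose by 0.45 in OPM1-labelled cells and by 1.34 in MM1S cells, and SFN, the 14-3-3 sigma protein of the G2 checkpoint, had a log2 change of 0.12 (adjusted p = 0.43) in OPM1-labelled cells and rose by 1.26 in MM1S cells. SESN2 rose by 1.48 in OPM1-labelled cells and fell by 0.42 in MM1S cells (adjusted p = 0.046). PHPT1 rose by 1.43 in OPM1-labelled cells, and the largest falls there were those of CCDC90B (-1.85), NTPCR (-1.59), ARHGEF3 (-1.10, with treated arrays below the signal limit) and TM7SF3 (-1.07). ARHGEF3 also had the largest fall in MM1S cells (-1.20).

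Of 19 tested regulators of p53, 1 rose and 11 fell in OPM1-labelled cells (median log2 change -0.47), and 0 rose and 9 fell in MM1S cells (median -0.34, limma). The shares over all genes tested were those just given, and the count of MM1S rises at an unadjusted p under 0.05 was also 0. COP1, a ubiquitin ligase of p53, had signals of 19.4 and 15.2 on Zalypsis arrays against 971 and 832 on control arrays of OPM1-labelled cells, and of 44.7 and 49.9 on Zalypsis arrays against 404 and 338 on control arrays of MM1S cells. Its log2 change was -4.24 ± 0.14 (adjusted p = 3.9e-16) in OPM1-labelled cells and -2.34 ± 0.14 (adjusted p = 8.9e-12) in MM1S cells. The treated OPM1 arrays of COP1 lay below the signal limit, so the OPM1 value is set against a level not above it. USP7, the deubiquitinase of MDM2 and p53, fell by 2.64 in OPM1-labelled cells and by 1.04 in MM1S cells, and CREBBP, an acetyltransferase of p53, fell by 2.39 in OPM1-labelled cells and by 1.21 in MM1S cells. MDM4, the partner of MDM2, fell by 2.03 in OPM1-labelled cells and by 0.72 in MM1S cells. HIPK2, a kinase of p53, lay below the signal limit on all OPM1 arrays and fell by 3.05 in MM1S cells. PRMT5, an arginine methyltransferase, was the regulator called higher in OPM1-labelled cells (0.47, adjusted p = 0.038).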

How the data were processed

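HG-U133 Plus 2.0 arrays were hybridised with biotin-labelled RNA, amplified in 2 cycles from 100 ng per the labels' protocols, with 1 array to each of 8 samples. The authors deposited linear intensity values of 54675 probe sets per array, made with the dChip software per the series' design text. The normalization dChip applied is not given in the sources used here.

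Values were turned into log2(value + 32), which understates changes of dim genes, so a fold change here is a log2 change on that scale. Genes came from the platform annotation: 41091 probe sets carried 1 symbol and were used, 1801 carried several and 11721 none, and 62 control probe sets were left out. The probe set with the highest mean log2 value over the 8 arrays stood for its gene (19775 genes), and the dimmest 40%, below a signal of 27.3, were left out, so a member could pass through 1 bright group. The 4 groups were fitted together in limma 3.58.1 (R 4.3.3; lmFit, contrasts.fit, eBayes with a trend), with 4 residual and 17 prior degrees of freedom. Benjamini-Hochberg adjustment ran over the 11865 genes of each contrast, and called means an adjusted p under 0.05. Log2 changes carry standard errors. Arrays have no read depth, and their number limits the precision. Alternatives were other pseudocounts, dim-gene filters, scalings, rules for probe sets, no trend, a replicate block, each array left out and the submitters' criterion of a change over 2-fold.

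Every member is accounted for. Values per array are given for the 8 largest called rises and 6 largest called falls in each line, the 6 largest differences each way between responses and between untreated lines, members whose probe sets were called in opposite directions, PLK2 and GDF15, and of the other pathway lists up to 4 of the largest called changes each way are named. Other members and probe sets shown were chosen after their values were seen. The members and all lists were chosen with earlier results of these data known. Spans and promoter windows come from RefSeq tables of GRCh38.p14.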

Additional observations from a re-analysis of the deposited data

Results flagged for a closer look

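The 24 members below had responses to Zalypsis that differed between the lines by the test of the difference itself (limma, adjusted p under 0.05). The value of each is the log2 change in OPM1-labelled cells minus that in MM1S cells.

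Among members of DNA repair, the difference was -1.90 for DDB2, -1.09 for POLH and -1.91 for RRM2B. Among those of the cell cycle and growth signalling it was -2.24 for PLK2, -2.00 for PLK3, -1.17 for CCNG1, -1.70 for ZMAT3, -1.41 for PHLDA3 and -0.71 for SESN1, against 1.52 for TSPYL2. Among those of cell death and autophagy it was -0.73 for AEN, -1.06 for TP53I3 and -0.71 for DRAM1, against 1.22 for PERP. Among metabolic members it was -1.44 for TIGAR, -1.78 for PANK1, -1.27 for FUCA1 and -0.53 for STEAP3, against 0.75 for ISCU. Among secreted, surface and other products it was -2.10 for PLXNB2, -1.43 for CYFIP2, -2.03 for TRIM22 and -0.68 for SUSD6, against 0.68 for TGFA. All OPM1 signals of PLK2, DRAM1 and TGFA and all MM1S signals of TRIM22 lay below the signal limit of 27.3. These differences set a measured change against signals at background. The PERP difference was called with 222392_x_at alone. With the mean of the PERP probe sets it was 0.23 (adjusted p = 0.1). The negative values outnumber the positive ones 20 to 4, beside 31.2% negative and 15.3% positive among all genes tested. What makes the lines differ was not tested.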

How the results depend on the processing

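In OPM1-labelled cells 7 higher and 13 lower became 11 and 8 after quantile normalization and 1 and 30 after scaling to the poly-A controls, and leaving out 1 array gave 7 to 8 higher and 10 to 14 lower. In MM1S cells the counts of 22 higher and 6 lower lay between 15 and 24 and between 4 and 6 under the alternatives run, and leaving out 1 array gave 18 to 23 higher and 5 to 6 lower. The 15 is the count of changes over 2-fold between group means, which is no test. Without shared probe sets 16 rose and 4 fell in MM1S cells, out of 26 members and not 35. Different responses (4 positive, 20 negative) became 0 and 32 with the poly-A scaling, beside 1.01% and 91.6% of all genes. With the mean of a gene's probe sets 2 were positive. Without shared probe sets 2 were positive and 13 negative, and only 26 members had a value. Leaving out 1 array gave 4 positive and 18 to 24 negative. Between untreated lines, leaving out 1 array gave 9 to 10 members higher and 18 lower in OPM1-labelled cells.

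ASCC3 changed sign where its other probe set became the brighter one: to 0.19 in MM1S cells and 0.21 between untreated lines at a pseudocount of 16, and to 0.19 in OPM1-labelled cells, 0.22 in MM1S cells and 0.26 between untreated lines after quantile normalization, which also put ZMAT3 at 0.04 in OPM1-labelled cells. The poly-A scaling, which could be run on the OPM1 arrays alone because the controls were too dim in MM1S, turned the OPM1 changes of XPC (-0.77), POLH (-1.36), GADD45A (-0.88), PHLDA3 (-0.93), SESN1 (-1.66), PIDD1 (-0.36), TRIAP1 (-0.30), RPS27L (-1.72), TIGAR (-1.71), ISCU (-0.99) and NINJ1 (-1.34) and the differences of TSPYL2 (-0.46), PERP (-0.15), TRIAP1 (-1.79) and ISCU (-1.33). Whether the spike-ins were added in equal amounts is not given in the sources used here. Without shared probe sets the OPM1 changes of POLH (-0.74), CDIP1 (0.27) and RPS27L (-0.87) and the difference of PERP (-0.13) turned.

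With the replicate number as a block, 8 members were higher and 14 lower in OPM1-labelled cells, 24 and 6 in MM1S cells, 4 and 24 for the difference, and 9 and 19 between untreated lines. The shares of all genes with the block are not given here, so these counts are not a result about the members. Arrays of the same number deviated together only weakly (correlation 0.209 in OPM1-labelled and 0.212 in MM1S cells), over 2 pairs, so the numbers are not taken to pair them. By the submitters' criterion of a change over 2-fold, taken between group means without a test, 7 members were higher and 9 lower in OPM1-labelled cells, and 15 and 4 in MM1S cells. The 15 include TRIM22, whose MM1S arrays all lay below the signal limit. Called changes over 2-fold on the log2 scale of the fit numbered 6 higher and 9 lower in OPM1-labelled cells, and 13 and 3 in MM1S cells. Among all 11865 genes they numbered 901 and 2627 in OPM1-labelled cells, and 193 and 850 in MM1S cells. The difference for STEAP3 lost its call under a pseudocount of 64 (-0.22, adjusted p = 0.25) and without any of 3 of the arrays, and that for AEN without MM1S control array 2 (-0.55, adjusted p = 0.054). Signals near 27.3 and below, such as those of PLK2 in OPM1-labelled cells and TRIM22 in MM1S cells, limit what can be said of changes there.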
